A study of Caenorhabditis elegans with 2 samples.

Results

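The excretory canal, duct and pore genes are 8 named genes of the Caenorhabditis elegans excretory system: lin-48 and ceh-6, which encode transcription factors, lpr-1, let-4 and let-653, which encode secreted or membrane proteins of the duct and pore, and exc-4, exc-5 and aqp-8, which act in the canal cell. They were named by hand, and all 8 were found among the 19973 nuclear protein-coding genes of the annotation. The data are peak lists from chromatin immunoprecipitation and sequencing (ChIP-seq) with an antibody against GFP, from whole early embryos of pooled sexes collected 2 hours after egg bleaching. The strain, OP620, carries unc-119(tm4063) III and the transgene wgIs620, from which CEH-36 is made with a C-terminal GFP-FLAG tag. Both biological replicates belong to this 1 group, no second condition or untagged strain was analysed here, and embryo age is given as unknown. In the labels ceh-36 stands in the antibody field, while the description gives GFP as the precipitated tag. The chromatin came from all cells, so an entry does not show in which cells the protein was bound.

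The excretory system is a small tube that regulates the worm's osmotic balance. A large canal cell collects fluid, the duct cell joins it to the outside, and the pore cell opens through the epidermis, with an apical matrix that keeps the narrow lumen open. CEH-36 is an Otx-class homeodomain protein that acts in embryonic progenitors of this lineage and is best known for the AWC and ASE sensory neurons. Otx-class proteins carry a lysine (K) at homeodomain position 50 and prefer the core TAATCC, while most other homeodomains (Q50) prefer TAATTA. The unit TTAGGC, which builds the worm's telomeres, also occurs in short runs within chromosomes, and CEH-37, another Otx-class protein of the worm, is known for binding it.

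An entry is one summit of a deposited list, on the build ce11 with positions counted from 1. It was assigned to a gene when its summit lay from 10 kb upstream of the gene to 5 kb past its end. The optimal list holds the entries that the authors kept after the irreproducible discovery rate procedure, and the pooled list and the list of each replicate hold 30000 entries each, most of them weak. Column 7 of a list is the signal given by the authors' peak caller, on that list's own scale, and ranks are by this signal with 1 as the strongest. Every optimal entry was also in the pooled list, above all others there, with a signal of 87.2 or more. Read depth is unknown from these lists, so no value carries an interval for counting error, and no test was run because there is 1 group and the members were chosen by hand.

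The sequences below come from entries on chromosomes III, IV and X, and each spans 151 bases around a summit. Capitals mark the K50 core TAATCC, its shorter form TAATC and the telomere unit TTAGGC, each on either strand. The optimal entry at lin-48 is shown for its run of telomere units, and that at let-4 for having neither such a run nor TAATCC. The others were picked because they hold TAATCC close to a weaker pooled summit whose entry overlaps one in each replicate list. These weaker entries ranked from 3689 to 7502 in the pooled list, below the optimal list.
lin-48, optimal entry upstream of the start (ce11, chrIII:3744984-3745134, forward strand): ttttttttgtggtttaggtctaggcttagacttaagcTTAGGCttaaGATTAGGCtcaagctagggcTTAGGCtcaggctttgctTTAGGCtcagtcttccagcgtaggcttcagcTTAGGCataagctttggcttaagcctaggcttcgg
let-4, optimal entry upstream of the start (ce11, chrX:14577729-14577879, forward strand): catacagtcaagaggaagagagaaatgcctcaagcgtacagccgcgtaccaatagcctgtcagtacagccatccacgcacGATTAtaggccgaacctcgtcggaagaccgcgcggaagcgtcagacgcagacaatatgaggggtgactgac
lin-48, weaker entry further upstream (ce11, chrIII:3744225-3744375, forward strand): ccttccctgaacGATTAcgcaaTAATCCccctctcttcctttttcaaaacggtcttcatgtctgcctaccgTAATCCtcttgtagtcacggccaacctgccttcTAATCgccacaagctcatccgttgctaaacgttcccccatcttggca
lin-48, weaker entry past the gene end (ce11, chrIII:3747779-3747929, forward strand): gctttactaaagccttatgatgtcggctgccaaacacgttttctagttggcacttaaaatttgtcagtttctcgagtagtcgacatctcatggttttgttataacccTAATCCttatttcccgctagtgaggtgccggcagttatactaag
let-653, weaker entry past the gene end (ce11, chrIV:11893461-11893611, forward strand): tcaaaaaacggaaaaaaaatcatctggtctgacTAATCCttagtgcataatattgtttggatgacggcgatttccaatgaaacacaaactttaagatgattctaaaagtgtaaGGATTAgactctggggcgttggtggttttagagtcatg
exc-5, weaker entry past the gene end (ce11, chrIV:8794395-8794545, forward strand): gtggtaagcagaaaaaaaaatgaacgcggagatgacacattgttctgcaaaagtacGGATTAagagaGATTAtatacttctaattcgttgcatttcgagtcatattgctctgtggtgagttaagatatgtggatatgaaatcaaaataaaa

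All 8 genes had entries in the pooled, replicate 1 and replicate 2 lists, as did 88.1%, 92.2% and 91.1% of all nuclear protein-coding genes. Of the 8 genes, 4 had an optimal entry in their window (lin-48, lpr-1, let-4 and exc-4), against 21.5% of all nuclear protein-coding genes. There were 5 such entries, because exc-4 had a pair. In 3 of the genes (lin-48, lpr-1 and let-4) the entry lay close to the gene start. An optimal entry from 1500 bp upstream to 500 bp downstream of the start was found in these 3 of 8 genes, against 4.12% of all nuclear protein-coding genes. The entries at lin-48 and lpr-1 stood in runs of telomere units. One with TAATCC within 100 bp of its summit was in this start window at 0 of the 8 genes, against 1.25%. The members without an optimal entry had only weaker entries. With earlier results of these data known when the genes were listed, these counts are descriptions.

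**Figure D1:**
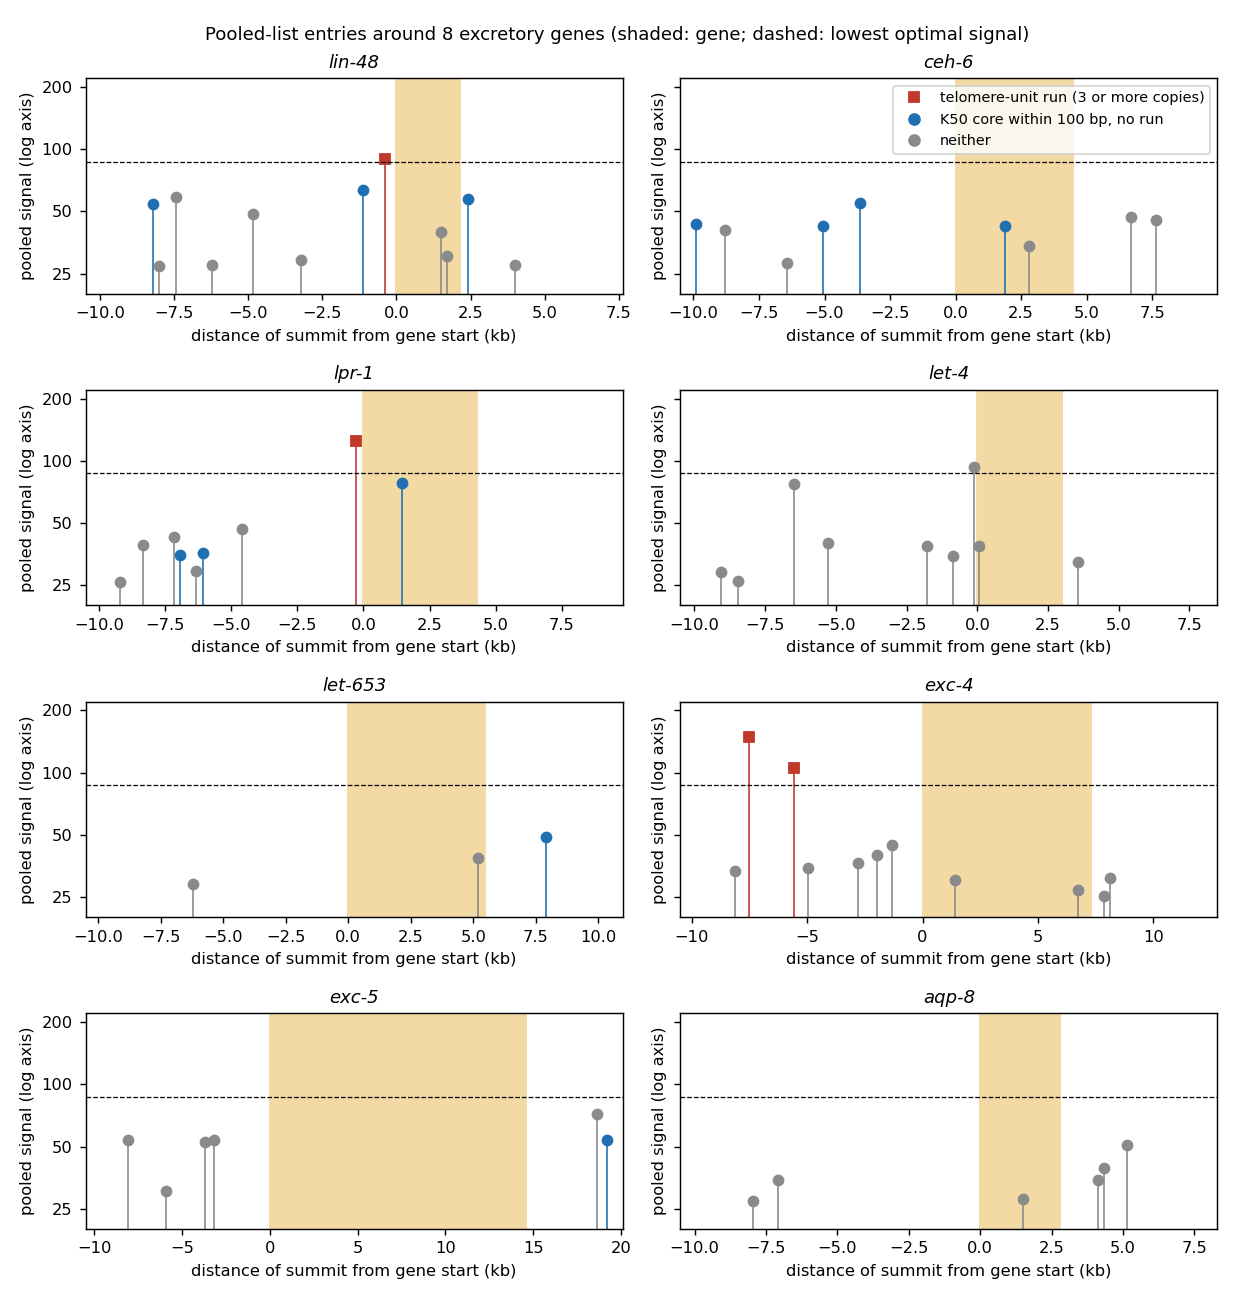
Signal in the pooled list (log axis) of every pooled entry in the window of each of the 8 genes, by the distance of its summit from the gene start in kb, with the gene shaded and the lowest signal of the optimal list, 87.2, dashed. Red squares are entries with 3 or more telomere units in the 391 bases centred on the summit, blue circles are entries with the K50 core within 100 bp and no such run, and grey circles are entries with neither. The 5 entries above the dashed line are 4 red squares, at lin-48, lpr-1 and exc-4, and 1 grey circle at let-4.

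Among the regulators, lin-48 (WBGene00003033, chrIII:3745438-3747572, forward strand) encodes an Ovo-family zinc finger protein that acts in the duct cell and the hindgut. Its optimal entry (chrIII:3744864-3745253, summit 379 bp upstream of the start, intergenic) had a pooled signal of 89.5 and ranked 1551, near the weak end of the optimal list. In the replicate lists the overlapping entries ranked 1694 in replicate 1 (signal 41.4) and 1764 in replicate 2 (signal 49.2), with summits 37 and 2 bp from the pooled one. The replicates gave lin-48 nearly the same rank, and in each of them it fell just short of a top group as large as the optimal list. The 391 bases centred on the summit held 5 copies of the telomere unit, and no TAATCC lay within 100 bp. The single TAATC there overlaps a telomere unit in the run GATTAGGC of the printed sequence.

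A weaker entry 1138 bp upstream of lin-48 (chrIII:3744105-3744494, pooled signal 63.2) held the core at its summit. It had 2 copies of TAATCC, the nearer centred 1 bp from the summit, and 4 copies of TAATC in all. It ranked 3689 in the pooled list, 3423 in replicate 1 and 5608 in replicate 2. So lin-48 had its strongest entry in a telomere-unit run and its next strongest, with a pooled q-value of 0.0731, on a cluster of K50 cores. Another 2 of its weaker entries also held TAATCC. The one 282 bp past the gene end lay in an intron of the neighbouring gene arcp-1 (pooled rank 4772, q-value 0.136). The other lay 8228 bp upstream, in a coding exon of F34D10.4 (pooled rank 5615, q-value 0.193).

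The POU homeobox gene ceh-6 (WBGene00000431, chrI:8498112-8502604, reverse strand), needed for the function of the excretory canal, had no optimal entry. Its strongest pooled entry (chrI:8506070-8506459, 3661 bp upstream, intergenic, signal 54.7) ranked 5476 and held 1 TAATCC centred 50 bp from the summit. This entry ranked 3427 in replicate 1 and 11240 in replicate 2, so the replicates placed it far apart. TAATCC was within 100 bp of 4 of its 9 pooled summits, the most of any member, against 19.3% of all nuclear pooled entries. Its window held 11 copies of TAATCC, as did that of let-653, also the most of any member. One of the 4 summits lay in an intron of ceh-6 itself, 1894 bp downstream of the start. It ranked 10853 in the pooled list, 29983 in replicate 1 and 7071 in replicate 2. The remaining ones had pooled ranks of 10179 and 10596, and were nearest to the starts of K02B12.2 and sec-12. The POU octamer ATGCAAAT was at none of the 65 pooled summits of the 8 genes, against 1.51% of all nuclear pooled entries.

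Among the duct and pore genes, lpr-1 (WBGene00002393, chrI:557375-561671, forward strand) encodes a lipocalin that keeps the lumen between duct and pore connected. Its optimal entry (chrI:556901-557290, 279 bp upstream of the start, intergenic) had a pooled signal of 125.5 and ranked 826. It ranked 877 in replicate 1 (signal 55.0) and 811 in replicate 2 (signal 72.2), with summits 2 and 1 bp from the pooled one, so the replicates placed it alike. There were 14 telomere units in the 391 bases around this summit, the most at any entry of the 8 genes, and no TAATCC within 100 bp. The next entry of lpr-1, in its own intron 1459 bp downstream of the start, fell below the optimal list with a pooled signal of 77.9 and a pooled rank of 2134. It held 1 TAATCC, centred 89 bp from the summit, and ranked 2032 in replicate 1 and 3809 in replicate 2.

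The gene let-4 (WBGene00002282, chrX:14577935-14580923, forward strand) encodes a transmembrane protein with leucine-rich repeats outside the cell that maintains the duct and pore matrix. It lies within an intron of C44H4.4, and so did the summit of its optimal entry (chrX:14577609-14577998, 131 bp upstream of let-4, pooled signal 93.1, rank 1426). The replicates differed here, with rank 938 in replicate 1 (signal 53.4) and 2143 in replicate 2 (signal 45.5), and summits 3 and 76 bp from the pooled one. This was the only one of the 5 optimal entries without a telomere unit in the 391 bases around the summit, and it had no TAATCC within 100 bp either. The shorter TAATC occurred once, 7 bp from the summit. The sequence had 53.2% G and C over the 201 bases around the summit, against a median of 45.3% over all nuclear optimal entries. Another entry, 6496 bp upstream of let-4 and also within C44H4.4, came next with a pooled signal of 77.0 and a pooled rank of 2197, and the nearest protein-coding start to it was that of lron-1. None of the 9 pooled entries of let-4 held TAATCC.

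The third gene of this group, let-653 (WBGene00002827, chrIV:11885613-11891082, forward strand), encodes a zona pellucida domain protein of the duct lumen matrix and had the fewest entries, with 3 in each of the pooled, replicate 1 and replicate 2 lists. The closest pooled summit to its start was 5197 bp downstream, in a coding exon. Replicate 2 had an entry 839 bp upstream of the start (signal 15.9), near the weak end of that list at rank 28925. The strongest was 2454 bp past the gene end (chrIV:11893341-11893730, signal 48.7) and ranked 7502 in the pooled list, 9697 in replicate 1 and 6895 in replicate 2. It held 3 copies of TAATCC within 100 bp, 2 of them as CTAATCC, more than any other entry of the 8 genes, and the printed stretch holds 2 of the 3. The replicate 2 summit lay 1 bp from the pooled one, with the same 3 copies, while the replicate 1 summit lay 140 bp away and had 0 copies within 100 bp.

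Among the canal genes, exc-4 (WBGene00001365, chrI:14511431-14518719, reverse strand) encodes a protein of the chloride intracellular channel (CLIC) family that keeps the canal lumen narrow. Its optimal entries were the strongest (chrI:14526034-14526423, 7510 bp upstream, pooled signal 148.3, rank 611) and the third strongest (chrI:14524083-14524472, 5559 bp upstream, pooled signal 105.3, rank 1100) of the 8 genes. The stronger one ranked 552 in replicate 1 (signal 70.6) and 688 in replicate 2 (signal 78.5). The other one was placed less evenly, at rank 2394 in replicate 1 (signal 36.3) and 989 in replicate 2 (signal 64.8). Both were intergenic, and both were nearer to the start of zoo-1, the worm relative of a tight junction protein, at 3300 and 5251 bp, than to that of exc-4. Telomere units numbered 10 and 11 in the 391 bases around these summits. The weaker of the pair held TAATCC, centred 66 bp from the summit, and it was the only one of the 5 optimal entries to do so. Its replicate 2 summit, 3 bp away, also had the core within 100 bp, and its replicate 1 summit, 86 bp away, did not. The entry nearest to the exc-4 start, 1305 bp upstream, had a pooled signal of 44.5 and a pooled rank of 9573.

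The other canal genes had weaker entries only. For exc-5 (WBGene00001366, chrIV:8799081-8813670, reverse strand), which encodes a guanine nucleotide exchange factor of the FGD family that shapes the canal tube, the strongest pooled entry was past the gene end, 18626 bp downstream of the start (chrIV:8794849-8795238, signal 71.6). It ranked 2651 in the pooled list, 3309 in replicate 1 and 2876 in replicate 2, the most even ranks of any weaker entry that led its gene, and held neither TAATCC nor TAATC. A neighbour 4611 bp past the end (pooled rank 5775) held TAATCC, centred 16 bp from its summit. No pooled summit lay within the 14590 bp of exc-5 or had its start as the nearest. For aqp-8 (WBGene00000176, chrX:4702167-4704977, reverse strand), which encodes an aquaporin water channel of the canal, the strongest pooled entry was past the gene end (chrX:4699655-4700044, signal 50.7, rank 6720), 389 bp upstream of hyl-2. Replicate 1 ranked it 5005 with a summit 1 bp from the pooled one, and the stronger overlapping entry of replicate 2 ranked 12609 with a summit 281 bp away. A weaker entry of replicate 2 (signal 22.4, rank 14968) also overlapped it and had its summit closer to the pooled one. This gene was the only member with TAATCC in the 500 bp upstream of its start, a feature of 15.4% of all nuclear protein-coding genes, and no pooled summit lay within 1495 bp of that start.

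Ordered by the strongest pooled entry in the window, the genes ran exc-4 (rank 611), lpr-1 (826), let-4 (1426), lin-48 (1551), exc-5 (2651), ceh-6 (5476), aqp-8 (6720) and let-653 (7502). The first 4 are the genes with an optimal entry. By the strongest entry in each replicate list, the order of the neighbours let-4 and lin-48 turned round between replicate 1 (938 and 1694) and replicate 2 (2143 and 1764). That of aqp-8 and let-653 also turned round, at 5005 and 9697 in replicate 1 and 7177 and 6895 in replicate 2, and the other neighbours kept their order in both. Of all nuclear protein-coding genes, 8.81% had an entry ranked as high as that of exc-4 or higher, 11.9% one as high as that of lpr-1, and 59.2% one as high as that of let-653. The median of the strongest rank was 2101.0 over the 8 genes and 4387.0 over the 17587 genes with any pooled entry. The 8 genes were also longer, with a median of 4395.0 bp against 2027.0 bp over all nuclear protein-coding genes, which widens their windows. The part of length in these ranks was not tested.

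**Figure D2:**
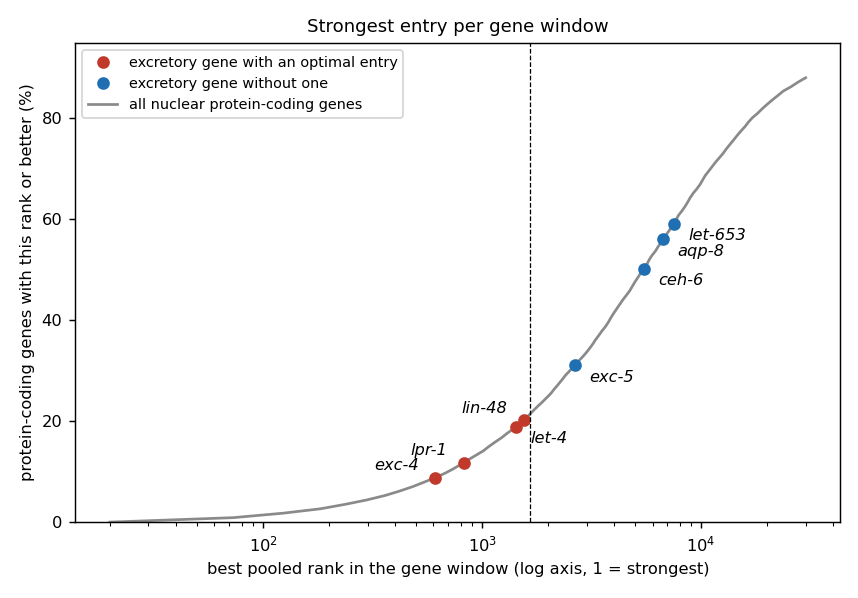
Share of nuclear protein-coding genes (vertical axis, %) whose strongest pooled entry in the window ranks at or above the value on the horizontal log axis, as a grey line, with the 8 genes placed on it. Red points are the 4 genes with an optimal entry, from exc-4 at rank 611 to lin-48 at 1551, blue points the 4 without one, from exc-5 at 2651 to let-653 at 7502, and the dashed line is the number of entries in the optimal list.

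The replicates agreed unevenly at these genes. All 5 optimal entries had an overlapping entry in both replicate lists, as did 99.6% of all nuclear optimal entries, which were chosen from the same replicates. Among the strongest entries of both replicates, as many from each as the optimal list holds, 2 of the 8 genes had an overlapping pair (lpr-1 and exc-4), against 15.8% of all nuclear protein-coding genes. The 60 weaker pooled entries of the 8 genes had an entry in both replicates in 34 cases (56.7%). Background entries are pooled entries that overlap no optimal one, which leaves out the let-4 entry 69 bp past the start. Of the 59 others 33 (55.9%) were in both replicates, close to the 55.1% of all nuclear background entries. Over all 65 it was 39 (60%), against 58.0% of all nuclear pooled entries. One replicate entry can overlap 2 neighbouring pooled entries, as at let-4, where the pooled summits 131 bp upstream and 69 bp downstream of the start share the same replicate entries. Each replicate list put 68 (replicate 1) and 67 (replicate 2) entries in the windows, of which 40 and 41 overlapped an entry of the other replicate. Of all 68 and all 67, 20 and 12 overlapped no pooled entry, and the strongest of them ranked 7247, near exc-4, and 10776, near let-4.

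**Figure D3:**
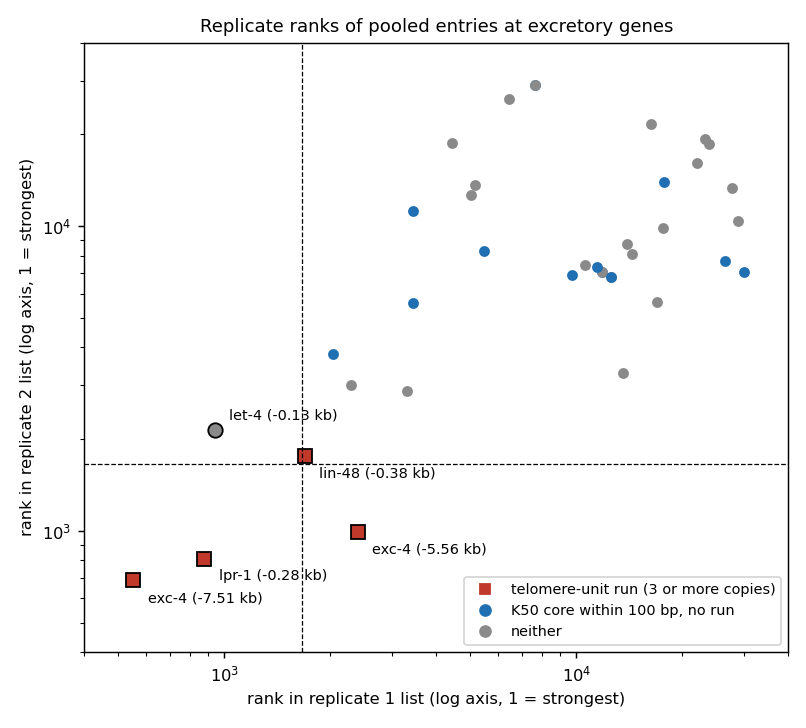
Rank in replicate 1 (horizontal) against rank in replicate 2 (vertical), both on log axes with 1 as the strongest, for the 39 pooled entries of the 8 genes found in both replicate lists. Large outlined symbols are the 5 optimal entries, colours are as in the plot of entries around each gene, and dashed lines mark the number of entries in the optimal list. The lpr-1 entry (877 and 811) and the stronger exc-4 entry (552 and 688) are inside both lines. The weaker entries lie outside both, except the let-4 entry 69 bp past the start, which shares the replicate entries of its stronger neighbour (938 and 2143).

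Among the 65 pooled entries telomere-unit runs stood only at optimal ones, while the K50 core stood at the same share of optimal and weaker entries. Runs of 3 or more telomere units in the 391 bases around the summit were at 4 of the 5 optimal entries (80.0%) and at 0 of the 60 weaker ones, against 34.9% of all nuclear optimal entries and 2.10% of all nuclear background entries. TAATCC within 100 bp was at 1 of the 5 optimal entries and at 12 of the 60 weaker ones, against 41.9% and 17.9% over all. Over both kinds it was at 13 of 65, against 19.3% of all nuclear pooled entries. The longer form CTAATCC was at 0 of 5 optimal and 3 of 60 weaker entries, against 413 of all 1636 nuclear optimal and 1229 of all 28017 nuclear background entries. The shorter TAATC was at 5 of 5 and 27 of 60, against 55.3% and 38.6%. Of these 5, 4 are the entries with a telomere-unit run, and at lin-48 the TAATC overlaps a telomere unit. Such overlap was not counted at the other entries with a run. The Q50 core TAATTA was at 0 of 5 and 8 of 60, against 5.13% and 7.01%. With 5 optimal entries a single entry moves a share by 20 percentage points, and none of these differences was tested. The 12 weaker entries with TAATCC, the 27 with TAATC and the 8 with TAATTA are all among the 59 that overlap no optimal entry. All motifs were searched on both strands, TAATC is contained in TAATCC and CTAATCC, and a match is a description, not a shown binding site.

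**Figure D4:**
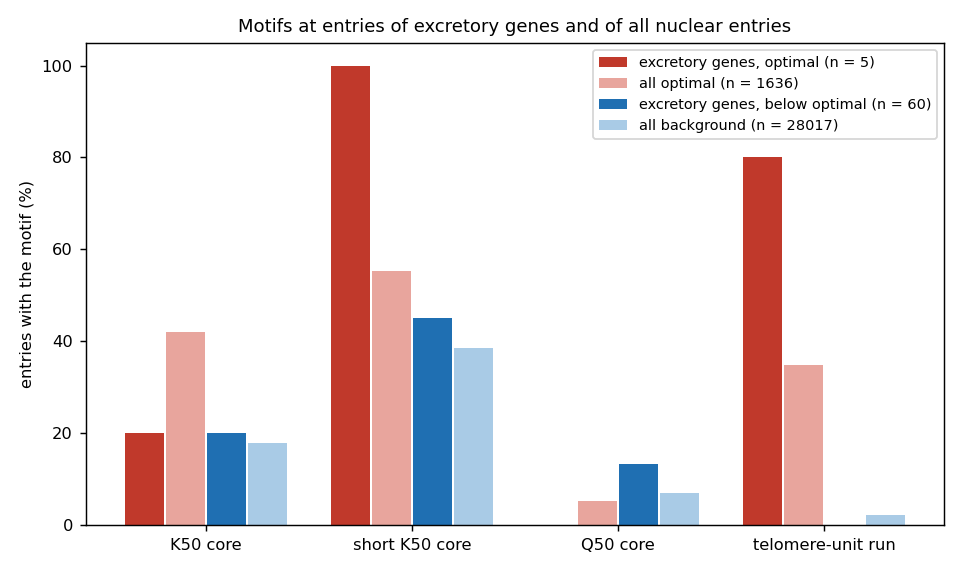
Share of entries (%) with the K50 core (TAATCC), its short form (TAATC) or the Q50 core (TAATTA) within 100 bp of the summit, or with a run of 3 or more telomere units in the 391 bases around it, for the 5 optimal and 60 weaker pooled entries at the 8 genes beside all 1636 nuclear optimal and 28017 nuclear background entries. The run of telomere units stands at 80.0% of the genes' optimal entries and 34.9% of all, while the K50 core stands at 20% and 41.9%.

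By gene, 1 of the 8 (exc-4) had an optimal entry with TAATCC, against 9.43% of all nuclear protein-coding genes. An optimal entry with TAATCC and no telomere-unit run was at 0 of the 8, against 5.51%, and one with TAATCC in the start window was at 0 of the 8, against 1.25%. None of these counts was tested. Telomere units moved with optimal status at these genes, and their part in the signal was not tested. How the authors placed reads at repeats is not stated in the sources at hand.

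Where TAATCC occurred at the weaker entries, the replicates often shared them. All 12 weaker entries with TAATCC overlapped an entry in both replicate lists, against 22 of the 48 without it (45.8%). Over all nuclear background entries the shares were 64.6% with TAATCC and 53% without. When summits had to lie within 100 bp of each other, 7 of the 12 (58.3%) and 13 of the 48 (27.1%) were shared, against 45.9% and 31.0% over all. These 12 entries lay at lin-48 (3), ceh-6 (4), lpr-1 (3), let-653 (1) and exc-5 (1). Their pooled ranks ran from 2134, at the lpr-1 intron entry, to 16916, while entries without TAATCC reached down to 29899. The pooled q-values of the 12 ran from 0.0138, at that lpr-1 entry, to 0.638, and the next lowest was 0.0731, at lin-48. The highest ranked weaker entry missing from a replicate list stood at 12456. The part of rank in this sharing was not tested. Counted by site, the windows held 54 copies of TAATCC in 164 kb, of which 16 (29.6%) were within 100 bp of a pooled summit, against 19.1% of the 36668 copies in the nuclear genome. Only 1 of the 54 (1.85%) was within 100 bp of an optimal summit, against 2.87%. The windows had 39.6 pooled entries per 100 kb, against 29.9 over the nuclear genome, and the part of this density in the share of sites was not tested.

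The windows reach into neighbouring genes. Of the 65 pooled entries, 42 were upstream of the member, 10 within it and 13 past its end, and for 42 the nearest protein-coding start was that of another gene, including an entry within an exon of exc-4 itself. In lin-48 7 of 12 entries had the member's start as the nearest, in exc-4 5 of 11, in let-4 4 of 9, in ceh-6 3 of 9, in lpr-1 2 of 9, in let-653 1 of 3, in aqp-8 1 of 6 and in exc-5 0 of 6.

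A further 44 genes of the excretory system, listed by role with earlier results known, had optimal entries at about the rate of all genes. They were longer, with a median of 6010.5 bp against 2027.0 bp over all nuclear protein-coding genes, which widens their windows. The part of length in this rate was not tested. In all, 11 of the 44 (25%) had an optimal entry in the window, against 21.5% of all nuclear protein-coding genes, and 1 of 44 had one in the start window (2.27%, against 4.12%). By role these were 2 of 8 genes of the EGF pathway that induces the duct fate (lin-45, which encodes Raf, and sos-1, an exchange factor for Ras), 2 of 7 fate genes (the nuclear receptor genes nhr-25 and nhr-31), 4 of 13 canal tube genes (exc-6, exc-7, exl-1 and ifb-1), 2 of 6 outgrowth genes (abi-1 and unc-73), 1 of 2 cell fusion genes (aff-1), 0 of 3 matrix genes and 0 of 5 transport genes. Of their 12 optimal entries, 4 had the start of the listed gene as the nearest protein-coding start. Among the 12, 6 held TAATCC, 2 held a telomere-unit run and 5 held the core without a run. Over all nuclear optimal entries these shares were 41.9%, 34.9% and 24.0%. The entry 3505 bp upstream of exc-6, which encodes a formin of the canal, had both (pooled signal 281.2, rank 179), with ranks of 171 and 192 in the replicates. The entry nearest in rank, 7237 bp downstream of the ifb-1 start (pooled signal 281.3, rank 178), held the core without a run and lay in an intron of dmd-5. The single start window entry was that of abi-1 (1020 bp upstream, pooled signal 96.9, rank 1302), with the core and no run. It lay in a coding exon of arle-14 and was nearest to the start of B0336.13. The strongest entry of the list, 9724 bp upstream of exc-7 (pooled signal 364.2, rank 99), had neither and was nearest to the start of F35H8.4. The entry of unc-73 (35070 bp downstream of its start, pooled signal 153.9, rank 572) held the core and was nearest to the start of F28H1.1. That of lin-45 (pooled signal 174.9, rank 465) held neither.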

How the data were processed

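ChIP-seq was performed on 2 replicates of 1 group. Per the labels' file descriptions, each replicate list and the pooled list came from alignments and a control, and the optimal list from these 3 lists. Neither aligner nor peak caller is named in the sources used here. The deposited lists hold a signal per entry (column 7) and −log10 of a q-value (column 9), both as the authors' caller gave them, and column 10 gives the summit. Lists on ce11 were set against WBcel235 (Ensembl release 115 genes, RefSeq genome), and 0 entries ran past a chromosome end. The ce10 lists were not used here. Entries of different lists were paired by an overlap of 1 bp or more, taking the strongest. Counting used Python 3.11.15, numpy 2.4.6 and pandas 2.3.3, and the counting rules were tested on simulated data. The 8 genes and the other lists were chosen with earlier results of these data known. The text names all 8 genes, each optimal entry in their windows, the strongest pooled entry where there was none, genes at these entries, and up to 4 other excretory genes per role. The weaker entries described in addition were chosen after their values were seen. Of 45 other excretory genes 1 had no match in the annotation. Alternatives for windows, lists, pairing and motifs are given at the end.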

Additional observations from a re-analysis of the deposited data

How the results depend on the processing

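Of 38 alternative values over the 8 genes, 14 stayed within 1.5 times the reported count, and the cause of the other moves was not tested beyond what each alternative changes by construction. With a window from 5 kb upstream to 1 kb past the end, or with only entries whose nearest start was the member's, 3 optimal entries were left, 0 of them with TAATCC, and 1 gene had a pair among the strongest entries of both replicates. In the 831 strongest optimal entries 2 genes had 2 entries, 0 with TAATCC, and with the 831 strongest entries of each replicate 1 gene had a pair. Without telomere-repeat entries 1 gene (let-4) had 1 entry, and 0 of the 8 had one with TAATCC, against 5.51% of all nuclear protein-coding genes. All other alternative counts were made for the 8 genes only, so no share of all genes stands beside them. With the strongest entries of 1 replicate, as many as in the optimal list, in its place, 2 to 3 genes had entries, numbering 3 to 3, of which 0 to 1 held TAATCC. The lin-48 entry was lost from both, that of let-4 from replicate 2 and the weaker one of exc-4 from replicate 1. The count of optimal entries with the core was 0 with a motif window of 50 bp, 0 for CTAATCC and 5 for TAATC. Pooled entries found in both replicates numbered 39, and 17 in the narrower window, 61 in one from 20 kb upstream to 10 kb past the end, 13 by nearest start and 25 with summits within 100 bp, where windows change the number of entries counted. No paired analysis was possible because there is 1 group and no test. The lists hold no read counts, so depth limits were not assessed.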
